A study of Mus musculus with 48 samples.

Results

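The ligands and receptors of the interleukin-1 (IL-1) family were followed in the renal cortex of mice after ischemia/reperfusion injury (IRI). They were chosen by name as 10 genes: the ligands Il1f6 (IL-36 alpha), Il1b, Il1a, Il33 and Il18, the receptor antagonist Il1rn, and the receptor chains Il1r1, Il1r2, Il1rl1 and Il1rap. Of these, 9 had values among the 14320 gene features of the series, and Il1rl1 was not analysed here. Both kidneys of 24 male C57BL/6 mice aged 6 to 8 weeks were sequenced, which gave 48 libraries in 8 groups of 6 kidneys. The left renal pedicle was clamped for 20 minutes in the model of mild AKI (acute kidney injury) and for 40 minutes in that of severe AKI. The left kidney was examined on day 1 or day 3 after IRI, and the right kidney of the same mouse served as the self-control. The labels name no transgene and no drug treatment for any group. The labels give each right kidney the day of its left kidney, whereas the methods describe removal of the right kidney before clamping. In every comparison with a right kidney, ischemia therefore cannot be told apart from the operation and the loss of the other kidney.

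The family works through paired receptor chains. IL-1 alpha and IL-1 beta bind IL1R1, which then recruits the shared chain IL1RAP and signals through MYD88 and IRAK kinases to NF-kB. IL-33 and IL-36 alpha use the same shared chain with receptors of their own, ST2 (encoded by Il1rl1) and the IL-36 receptor (encoded by Il1rl2), whereas IL-18 uses the pair encoded by Il18r1 and Il18rap. Several brakes are built in: the antagonist IL1RN occupies IL1R1 without starting a signal, IL1R2 is a decoy that binds IL-1 but lacks a signalling domain, and IL18BP neutralizes IL-18. In the kidney, IL-1 alpha and IL-33 are known as alarmins that injured cells release, IL-1 beta and IL-18 as products of inflammasome cleavage, and IL-36 alpha as a cytokine of damaged tubules.

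The values were fragments per kilobase of transcript, scaled to the mapped fragments of the library (FPKM) and summed per gene. They totalled 381308 to 421059 FPKM per library, and the depth, estimated from the steps between low values, lay between 9.45e+06 and 1.6e+07 read pairs. Right kidneys held all 6 proximal tubule markers looked at, with a summed level of 1875 to 2546 FPKM. The summed level of 3 markers of injured tubules (Havcr1, Krt20, Sox9) was 0.474 to 4.13 FPKM in right kidneys and 188 to 1325 FPKM in left kidneys after 40 minutes. After 20 minutes it was uneven. On day 1, left kidneys 5 and 6 were at 3.88 and 3.12 FPKM, and the other 4 were between 36.8 and 567 FPKM. On day 3, left kidney 4 was at 840 FPKM, and the other 5 were between 2.25 and 41.8 FPKM. For the members, the mild AKI differences are also given without mouse 5, mouse 6 (day 1) or mouse 4 (day 3), where they were tested.

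Across the family, Il1f6 was called higher in the left kidney in all 4 comparisons with the right kidney, and Il1r2 in 3 of them. To be called, a gene needed a limma p under 0.05 after Benjamini-Hochberg adjustment over all genes tested and a fold of at least 2. In mild AKI, 1 of 9 members tested was called on day 1 (Il1f6), where 1.64% of all genes were called, and 2 of 8 on day 3 (Il1f6 and Il1r2), where 4.07% of all genes were called. In severe AKI on day 1, 5 of 9 members were called higher (Il1f6, Il1rn, Il33, Il1r1 and Il1r2) and 1 lower (Il1b), against 23.1% of all genes (15.7% higher and 7.39% lower). On day 3 after 40 minutes, 4 of 9 were called, all higher (Il1f6, Il1rn, Il33 and Il1r2), against 21.3% of all genes (15.3% higher). All 6 left kidneys exceeded all 6 right kidneys for 0, 1, 4 and 6 members (mild days 1 and 3, severe days 1 and 3), beside 3.2%, 4.86%, 24.6% and 25.7% of all genes. The median log2 difference of the members tested was 0.44 and 0.49 in mild AKI (days 1 and 3) and 1.51 and 1.47 in severe AKI. The median of all genes was 0.10, 0.016, 0.24 and 0.16 in the same order, and -0.018, -0.00097, 0.019 and -0.0046 once libraries were scaled to an equal median. With that scaling the calls over all genes in severe AKI moved from 2244 higher and 1055 lower to 1723 and 1433 on day 1, and from 2187 and 853 to 1852 and 1080 on day 3. The cortex was sequenced as a whole, so that a change in the number of cells of a type and a change in RNA per cell cannot be told apart.

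**Figure D1:**
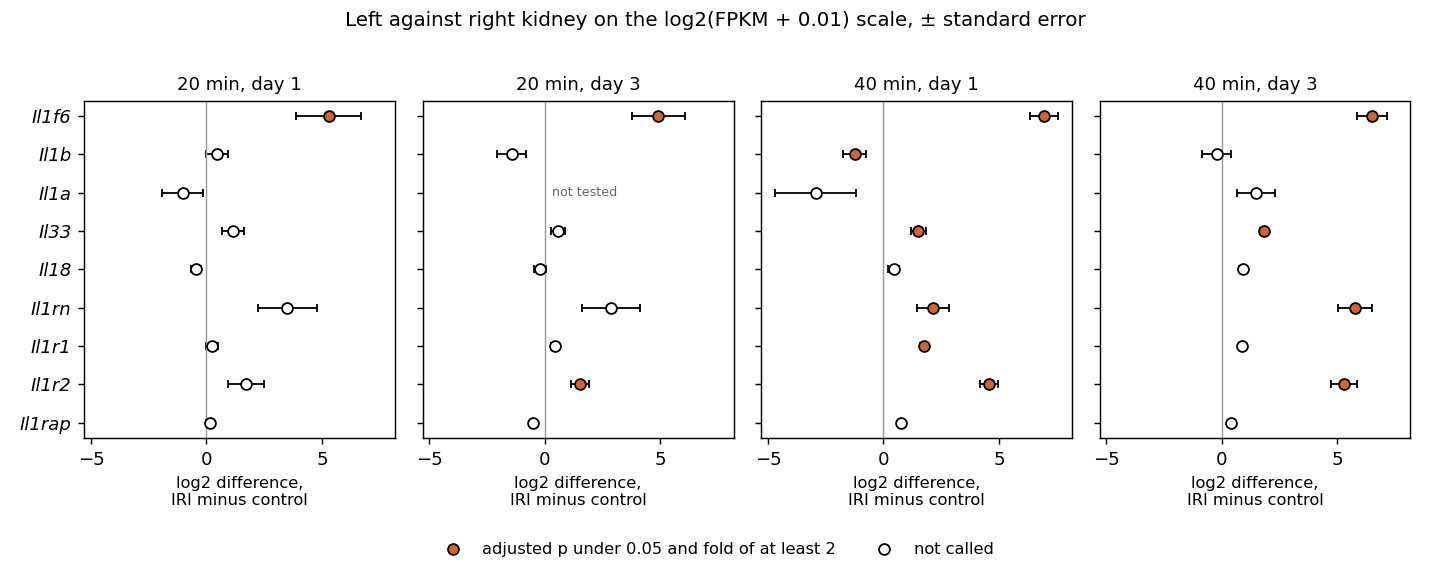
Difference between left (IRI) and right (control) kidneys for the 9 members on the log2(FPKM + 0.01) scale, 1 panel for each ischemia time and day, with bars for the standard error of the limma fit over 6 against 6 kidneys. Il1f6 is filled, meaning called, in all 4 panels, Il1r2 in 3, and Il1b is called lower in 1; Il1a fell under the minimum level for testing in 1 panel.

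Il1f6 encodes IL-36 alpha (chr2:24215418-24225702, plus strand, GRCm38), a ligand of the IL-36 receptor, and was close to silent in right kidneys. It was listed at 0 in 19 of 24 right kidneys, and the other 5 held 0.0896 to 0.112 FPKM, which is about 1 read pair each. After 20 minutes on day 1, left kidneys ranged from 0 to 6.71 FPKM with a median of 1.22. On day 3 the range was 0.122 to 17.9 FPKM with a median of 0.479. The left kidneys of the mild model thus spread widely, and on day 1 they overlapped the right kidneys through kidneys 5 and 6, at 0 and 0.0874 FPKM. After 40 minutes they were even, between 1.34 and 2.80 FPKM on day 1 (median 1.85) and between 0.538 and 2.87 FPKM on day 3 (median 1.46). No left kidney of the severe model overlapped a right kidney, and the left kidney was higher in all 6 mice of either day.

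On the log2(FPKM + 0.01) scale Il1f6 was higher by 5.30 (SE 1.41, limma adjusted p = 0.0441) and 4.92 (SE 1.15, adjusted p = 0.0116) in mild AKI on days 1 and 3. In severe AKI it was higher by 6.95 (SE 0.61, adjusted p = 9.31e-07) and 6.52 (SE 0.64, adjusted p = 2.38e-06). With right kidneys at about 0 these sizes depend on the added 0.01 FPKM. Il1f6 also passed 0.500009 FPKM, the smallest maximum of any deposited transcript, in left kidneys only. From estimated read pairs, the ratio of left to right kidneys was 151 (95% exact interval 26.8 to 6.01e+03) and 112 (30.5 to 928) in mild AKI, and 113 (19.9 to 4.49e+03) and 103 (18.2 to 4.13e+03) in severe AKI. These intervals cover counting error only and not the spread between kidneys. Right kidneys held 1, 2, 1 and 1 read pairs in the 4 comparisons. In mild AKI on day 1, left kidney 3 held 95 of the 163 read pairs of its group. On day 3, left kidney 4 held 184 of 206. The day 1 call of mild AKI was lost with the mouse as a block (adjusted p = 0.0669). It held without mouse 5 (6.36, adjusted p = 0.0114) and without mouse 6 (5.70, adjusted p = 0.0404), and was lost without mouse 1, 2, 3 or 4 (adjusted p = 0.116 to 0.154). Without mouse 4, whose left kidney held 17.9 FPKM, the day 3 difference was 4.42 (adjusted p = 0.00393), and without mouse 6 that call was lost (adjusted p = 0.0505).

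The order of the left kidney medians of Il1f6 was 40 minutes day 1, 40 minutes day 3, 20 minutes day 1 and 20 minutes day 3. The ranges of all neighbours overlapped. Severe against mild left kidneys gave 1.70 (SE 1.30, adjusted p = 0.322) on day 1 and 1.04 (SE 0.99, adjusted p = 0.451) on day 3 for Il1f6. Without left kidney 4 of the mild model the day 3 value was 1.99 (adjusted p = 0.0148). Day 3 against day 1 gave 0.19 (adjusted p = 0.970) in mild and -0.48 (adjusted p = 0.380) in severe AKI.

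**Figure D2:**
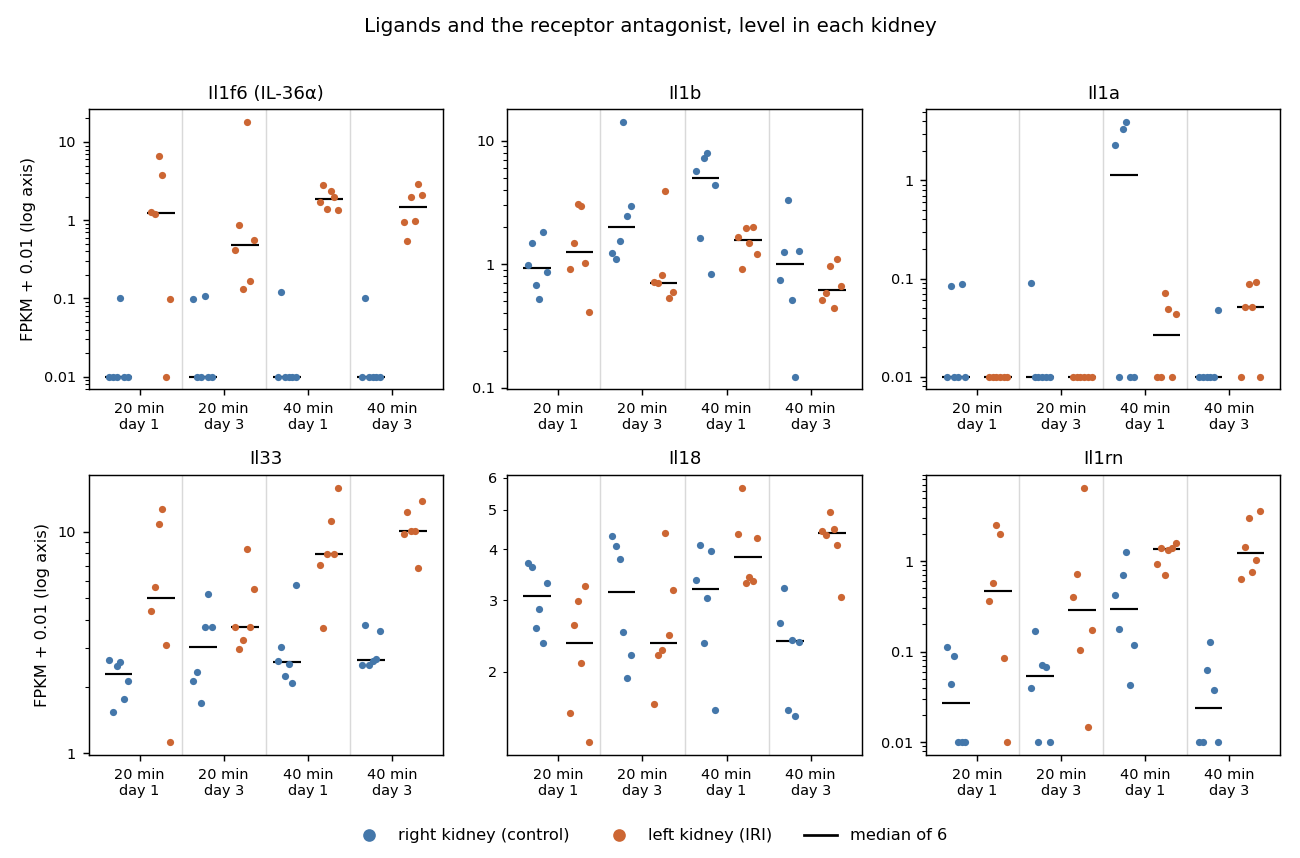
Level of each ligand and of the antagonist Il1rn in every kidney (FPKM + 0.01, log axis), right kidneys in blue and left kidneys in orange, with the median of 6 as a line. Il1f6 lies at or near 0 in right kidneys and between 0.538 and 2.87 FPKM in left kidneys after 40 minutes, whereas Il1b and Il1a reach their highest levels in right kidneys.

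Il33 encodes IL-33, a nuclear cytokine of fibroblasts, endothelium and epithelium that is released from damaged cells and signals through ST2. The gene (chr19:29925114-29960718, plus strand, GRCm38) was deposited with a pair of full-length transcripts that have different start sites. The 250 bases before each start are shown because the FPKM assigned to them moved in opposite directions on day 3 of severe AKI. They are plus-strand sequences of RefSeq GRCm38.p6, with the letters TATAAA in capitals. The upstream window (chr19:29924863-29925112) lies before the RefSeq start next to one transcript and the downstream window (chr19:29945540-29945789) before that of the other.
Il33 upstream start: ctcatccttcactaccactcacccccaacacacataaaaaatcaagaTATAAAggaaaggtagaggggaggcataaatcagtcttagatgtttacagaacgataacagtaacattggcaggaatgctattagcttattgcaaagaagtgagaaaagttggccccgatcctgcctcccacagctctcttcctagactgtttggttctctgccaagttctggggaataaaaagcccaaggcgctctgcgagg
Il33 downstream start: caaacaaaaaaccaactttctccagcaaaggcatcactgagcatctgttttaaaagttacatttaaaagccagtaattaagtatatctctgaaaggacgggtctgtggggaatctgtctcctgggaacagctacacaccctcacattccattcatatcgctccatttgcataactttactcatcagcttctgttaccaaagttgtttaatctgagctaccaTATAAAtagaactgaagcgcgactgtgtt
TATAAA begins at position -203 from the upstream start and at -29 from the downstream start. Searched on both strands, these 6 letters occur in 12.4% of all 32851 windows of this length, so that a match is a description of the sequence only.

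Summed over transcripts, Il33 was present in all 48 kidneys. Right kidneys held 1.52 to 5.76 FPKM. After 20 minutes, left kidneys ranged from 1.11 to 12.6 FPKM on day 1 (median 4.99) and from 2.94 to 8.37 FPKM on day 3 (median 3.70). Both ranges overlapped those of the right kidneys, at 1.52 to 2.63 FPKM (median 2.28) on day 1 and 1.67 to 5.20 FPKM (median 3.00) on day 3. The differences of 1.15 (SE 0.48, limma adjusted p = 0.155) and 0.56 (SE 0.31, adjusted p = 0.243) were not called. Without mouse 6, whose left kidney was the lowest at 1.11 FPKM, the day 1 difference was 1.57 and called (adjusted p = 0.0255), and without mouse 5 it was 1.22 and not called (adjusted p = 0.212). Without mouse 4 the day 3 difference was 0.44 (adjusted p = 0.329).

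After 40 minutes Il33 ranged from 3.66 to 15.8 FPKM on day 1 (median 7.92) and from 6.84 to 13.6 FPKM on day 3 (median 10.1) in left kidneys. Right kidneys were at 2.06 to 5.76 FPKM (median 2.56) and 2.48 to 3.79 FPKM (median 2.62). The groups overlapped on day 1 only, through left kidney 2 and right kidney 6. Il33 rose by 1.51 (SE 0.33, adjusted p = 0.00144) on day 1, a 2.85-fold difference, and by 1.82 (SE 0.17, adjusted p = 1.33e-06) on day 3, a 3.53-fold difference. On day 3 severe exceeded mild left kidneys by 1.26 (SE 0.25, adjusted p = 0.00260), and the change against the right kidney was larger by 1.26 (SE 0.37, adjusted p = 0.0128), a call lost with all 8 groups in 1 fit (adjusted p = 0.0629). On day 1 the corresponding difference of changes was 0.36 (SE 0.61, adjusted p = 0.705).

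In severe AKI the assignment of Il33 reads to start sites differed between left and right kidneys. The downstream-start transcript was at 6.22 to 12.6 FPKM in left kidneys on day 3 after 40 minutes and at 0 in 5 of 6 right kidneys, the other holding 2.37 FPKM. The upstream-start transcript was at 0.623 to 1.01 FPKM in the same left kidneys and at 1.42 to 3.55 FPKM in the right kidneys. Neither transcript overlapped between the groups. The downstream-start transcript rose by 8.52 (limma over all transcripts, adjusted p = 0.000212) and the upstream-start transcript fell by 1.63 (adjusted p = 0.000171), where 13.8% of all transcripts were called. On day 1 after 40 minutes, where 15.4% of transcripts were called, the downstream-start transcript of Il33 rose by 6.54 (adjusted p = 0.00813) and the upstream-start transcript gave -0.95 (adjusted p = 0.251). With right kidneys listed at 0, both sizes for the downstream-start transcript depend on the added 0.01 FPKM. Its means were 9.36 FPKM in left and 0.395 FPKM in right kidneys on day 3, and 7.70 and 1.14 FPKM on day 1.

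As a share of Il33 FPKM, the downstream-start transcript made up 89.6% ± 2.77 (SD, n = 6) of left and 10.4% ± 25.5 of right kidneys on day 3 after 40 minutes (two-sided exact permutation test, p = 0.00216). On day 1 the shares were 85.2% ± 14.2 and 26.4% ± 41.1 (exact p = 0.0195). In mild AKI they were 56.5% ± 44.3 and 8.23% ± 19.6 on day 1 (exact p = 0.0606) and 57.6% ± 44.6 and 43.1% ± 47.3 on day 3 (exact p = 0.632). These p-values are unadjusted, from 16 shares compared over 4 genes. The downstream-start transcript exceeded the other in 20 of 24 left and 6 of 24 right kidneys. Right kidneys 4, 5 and 6 of mild AKI on day 3 were among the latter, with shares of 84.6% to 87.7%. Both transcripts encode the same length of 266 codons and differ in few bases. Only 69 bases of the downstream-start and 32 of the upstream-start transcript lie in no other deposited transcript of the gene. How far the estimation of transcript levels sets these shares was not tested.

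**Figure D3:**
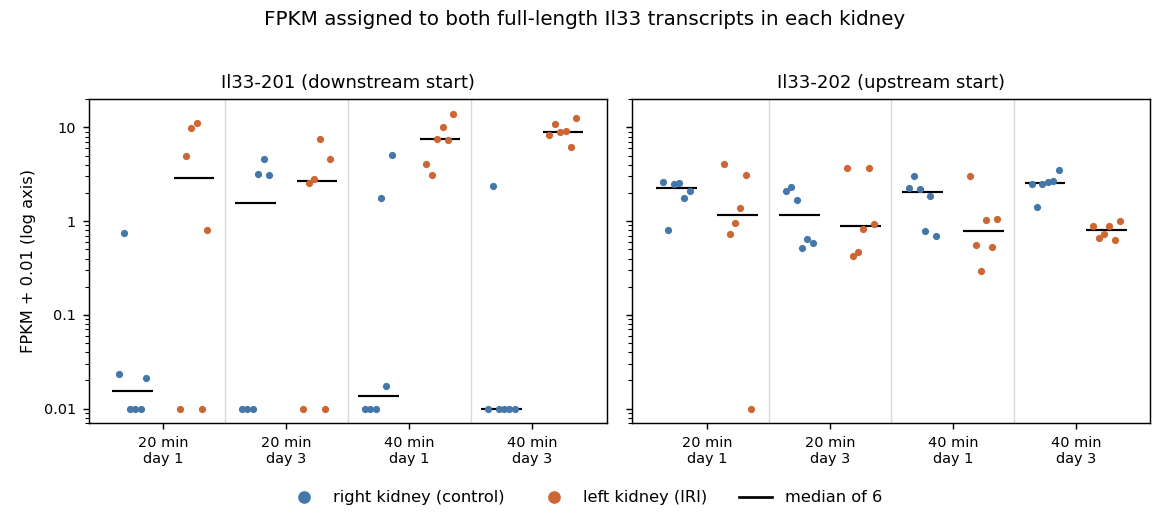
FPKM assigned to the full-length Il33 transcripts from the downstream and the upstream start in each kidney (FPKM + 0.01, log axis), with the median of 6 as a line. After 40 minutes on day 3 the 6 left kidneys hold 6.22 to 12.6 FPKM of the downstream-start transcript and 5 of 6 right kidneys are at 0, while the upstream-start transcript is lower in left than in right kidneys.

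Il1b, the gene of the inflammasome product IL-1 beta (chr2:129364570-129371139, minus strand, GRCm38), was not higher in injured kidneys in any comparison that passed the test. It was present in all 48 kidneys. In mild AKI on day 1, left kidneys held 0.402 to 3.06 FPKM (median 1.24) and right kidneys 0.513 to 1.80 FPKM (median 0.913). On day 3 left kidneys held 0.523 to 3.86 FPKM (median 0.700) and right kidneys 1.08 to 14.1 FPKM (median 1.98). The highest value of each day 3 group came from mouse 4, and within each of the 6 mice the left kidney was the lower.

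In severe AKI on day 1 left kidneys held 0.900 to 2.0 FPKM of Il1b (median 1.56) and right kidneys 0.828 to 7.95 FPKM (median 5.0). On day 3 the ranges were 0.434 to 1.09 FPKM (median 0.612) and 0.113 to 3.30 FPKM (median 0.985). The left kidney was lower in 5 of 6 mice on both days, although the groups overlapped. The difference was 0.44 (SE 0.48, limma adjusted p = 0.595) and -1.45 (SE 0.63, adjusted p = 0.140) in mild AKI, and -1.25 (SE 0.51, adjusted p = 0.0488, called) and -0.23 (SE 0.62, adjusted p = 0.774) in severe AKI.

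These Il1b results depended on a few kidneys. In mild AKI on day 3, Il1b passed the test with the mouse as a block (adjusted p = 0.0173) and without mouse 4 (-1.36, adjusted p = 0.00784). On day 1 it gave 0.70 (adjusted p = 0.453) without mouse 5 and 0.75 (adjusted p = 0.270) without mouse 6. In severe AKI on day 1, right kidneys 1, 3 and 4 held 5.62, 7.22 and 7.95 FPKM. Without these 3 kidneys the difference was -0.29 (adjusted p = 0.643), and without mouse 1, 2, 3, 4 or 6 alone the call was lost (adjusted p = 0.0549 to 0.145). It was also lost with no filter, with all 8 groups in 1 fit and with no variance trend (adjusted p = 0.0554 to 0.0726), and fell under the required fold with a pseudocount of 1 FPKM (-0.95). Among left kidneys of the severe model, Il1b fell by 1.14 (SE 0.27, adjusted p = 0.0144) from day 1 to day 3, where 4.94% of all genes were called and Il1b was the only member called. Its change against the right kidney differed between severe and mild AKI by -1.69 on day 1 (SE 0.73, adjusted p = 0.0843), which passed without mouse 5 of the severe model (-2.196, adjusted p = 0.0217) or mouse 6 of the mild model (-1.997, adjusted p = 0.0429).

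**Figure D4:**
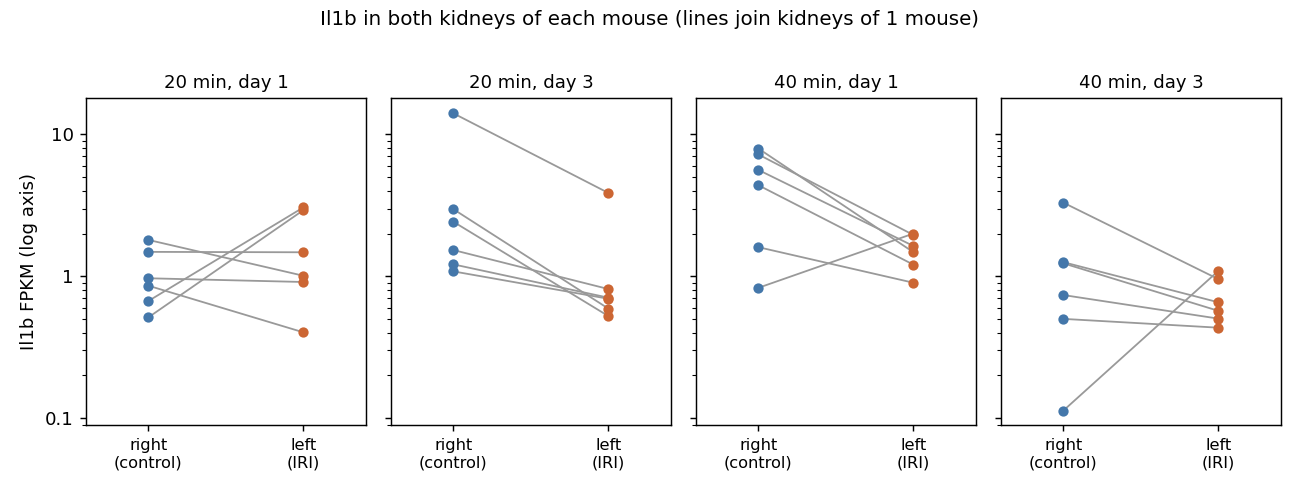
Il1b in the right (control) and left (IRI) kidney of each mouse (FPKM, log axis), 1 panel for each ischemia time and day, with a line joining the kidneys of 1 mouse. In mild AKI on day 3 all 6 lines fall, and in severe AKI 5 of 6 lines fall on each day.

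Il1a encodes the alarmin IL-1 alpha (chr2:129299610-129309972, minus strand, GRCm38) and was listed at 0 in 17 of 24 left and 17 of 24 right kidneys. The highest left kidney held 0.0829 FPKM. The same right kidneys 1, 3 and 4 of severe AKI on day 1 stood alone, at 2.27, 3.36 and 3.91 FPKM, and the other 3 right kidneys of that group were at 0. In the fits of the compared groups with all kidneys Il1a was not called. In mild AKI all left kidneys were at 0, and on day 3 Il1a fell under the minimum level for testing. On day 1 of mild AKI it gave -1.24 without mouse 6 (limma adjusted p = 0.418). It gave -2.94 (SE 1.75, adjusted p = 0.168) in severe AKI on day 1, which passed with all 8 groups in 1 fit (adjusted p = 0.0210), and 1.2 (adjusted p = 0.437) when these 3 right kidneys were left out. On day 3 of severe AKI it gave 1.47 (SE 0.82, adjusted p = 0.143), and 2.22 (adjusted p = 0.0391) without mouse 6, on an estimated 6 read pairs in left and 1 in right kidneys. Severe against mild left kidneys on day 3 gave 1.85 (adjusted p = 0.1096), which passed with no filter (adjusted p = 0.0437) or no variance trend (adjusted p = 0.0283). The summed neutrophil markers of right kidneys 1, 3 and 4 were 3.05, 6.52 and 8.25 FPKM and the macrophage and monocyte markers 71.8, 102 and 88.1 FPKM. The other 3 kidneys held 5.35 to 15.3 FPKM and 48.5 to 78.4 FPKM. The ranges of these sets of kidneys overlapped for both sums, although right kidneys 3 and 4 had the highest macrophage and monocyte sums. The part of these cells in the levels of Il1a and Il1b was not tested.

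Il18, the gene of the inflammasome product IL-18 (chr9:50554827-50581840, plus strand, GRCm38), was present in all kidneys. Against the right kidney it moved by less than 2-fold in the fits with all kidneys. In severe AKI left kidneys held 3.29 to 5.67 FPKM (median 3.83) on day 1 and 3.04 to 4.94 FPKM (median 4.38) on day 3. Right kidneys held 1.60 to 4.08 FPKM (median 3.19) and 1.55 to 3.21 FPKM (median 2.37). On day 3 only left kidney 6 lay within the range of the right kidneys. The difference was 0.45 (SE 0.23, adjusted p = 0.113) on day 1 and 0.91 (SE 0.19, adjusted p = 0.00103) on day 3, a 1.88-fold difference that stayed under the required fold and passed it without mouse 2 (1.01) or mouse 6 (1.02).

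In mild AKI Il18 gave -0.46 (SE 0.23, adjusted p = 0.217) and -0.22 (SE 0.27, adjusted p = 0.620). It gave -0.64 (adjusted p = 0.118) without mouse 5 and -0.29 (adjusted p = 0.373) without mouse 6 of day 1, and -0.42 (adjusted p = 0.280) without mouse 4 of day 3. Left kidneys held 1.33 to 3.23 FPKM on day 1 and 1.66 to 4.37 FPKM on day 3, inside or below the ranges of the right kidneys except for left kidney 4 on day 3. On day 1 all severe left kidneys exceeded all mild left kidneys, a separation that 10.5% of all genes showed. Across other settings severe exceeded mild left kidneys by 0.63 to 0.86 on day 1 (limma adjusted p = 0.00264 to 0.0201). On day 3 this was 0.53 to 0.71 (adjusted p = 0.0152 to 0.0648), on both days under the required fold. The change against the right kidney differed between severe and mild AKI by 0.91 (SE 0.33, adjusted p = 0.0418) on day 1 and by 1.13 (SE 0.33, adjusted p = 0.0134) on day 3. The day 1 value lost its call with the mouse as a block (adjusted p = 0.0689), with libraries scaled to an equal median (adjusted p = 0.0730), without right kidneys 1, 3 and 4 of the severe model (adjusted p = 0.1099), and without any 1 of 9 of the 12 mice (mice 1, 2, 3, 4 and 6 of the severe and 1, 2, 4 and 6 of the mild model, adjusted p = 0.0514 to 0.118).

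Il1rn encodes the receptor antagonist, which exists as a secreted form and as intracellular forms from other start sites. The gene lies at chr2:24336853-24351494 (plus strand, GRCm38). The 250 bases before the RefSeq start of its longer transcript (RefSeq GRCm38.p6, chr2:24336610-24336859, plus strand) are shown because that transcript carried calls in severe AKI on both days. Capitals mark a match to the AP-1 motif TGANTCA, searched on both strands.
Il1rn longer transcript: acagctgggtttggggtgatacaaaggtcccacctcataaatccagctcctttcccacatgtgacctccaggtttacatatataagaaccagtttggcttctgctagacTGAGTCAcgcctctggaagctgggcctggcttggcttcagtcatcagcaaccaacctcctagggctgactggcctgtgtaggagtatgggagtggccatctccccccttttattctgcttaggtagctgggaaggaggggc
The match begins at position -141 from the start, and 6.75% of all 32851 windows hold this motif. The other Il1rn windows (chr2:24345041-24345290 and chr2:24345121-24345370), near the start of its other deposited transcript, held none of the motifs searched. Among the members' windows, Il1a also held TGANTCA and TATAAA, Il1b TATAAA, Il18 TATAAA on the opposite strand, Il1r2 TTCNNNGAA (in 7.02% of all windows) and Il1r1 the NF-kB consensus (in 3.9%).

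Right kidneys held little Il1rn outside severe AKI on day 1. It was at 0 to 0.158 FPKM in the right kidneys of both mild groups and of severe AKI on day 3, and at 0.0333 to 1.27 FPKM (median 0.289) in those of severe AKI on day 1. After 20 minutes left kidneys ranged from 0 to 2.52 FPKM on day 1 (median 0.459) and from 0.00465 to 6.5 FPKM on day 3 (median 0.277). They overlapped the right kidneys on both days. After 40 minutes they ranged from 0.700 to 1.58 FPKM on day 1 (median 1.34) and from 0.627 to 3.55 FPKM on day 3 (median 1.22), with overlap on day 1 only.

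Il1rn gave 3.5 (SE 1.29, limma adjusted p = 0.113) and 2.88 (SE 1.26, adjusted p = 0.138) in mild AKI, neither called. It rose in severe AKI by 2.16 (SE 0.68, adjusted p = 0.0157) on day 1 and by 5.76 (SE 0.73, adjusted p = 1.97e-05) on day 3. Without mouse 6 the day 1 value of mild AKI was 4.20 and called (adjusted p = 0.0298), and without mouse 5 it was 3.58 and not called (adjusted p = 0.159). Without mouse 4 the day 3 value was 2.15 (adjusted p = 0.210). The severe day 1 call was lost without mouse 2 or mouse 6 (adjusted p = 0.0570 and 0.0601) and with all 8 groups in 1 fit (adjusted p = 0.0856). It fell under the required fold with a pseudocount of 1 FPKM (0.65). Without right kidneys 1, 3 and 4 it was 3.60 (adjusted p = 0.000218).

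The difference between the days in severe AKI was 3.61 for Il1rn (SE 1.03, adjusted p = 0.0248), and 13.9% of all genes were called there. It was lost with the mouse as a block (adjusted p = 0.05005), with a pseudocount of 0.1 or 1 FPKM (adjusted p = 0.0558 and 0.167), with all 8 groups in 1 fit (adjusted p = 0.115), without mouse 2 or 6 of day 3 or mouse 1, 3 or 4 of day 1 (adjusted p = 0.0597 to 0.0689) and without the 3 right kidneys (2.16, adjusted p = 0.170). Severe against mild left kidneys gave 2.31 for Il1rn on day 3 (adjusted p = 0.141), and 3.22 (adjusted p = 0.0127) without left kidney 4 of the mild model. The difference of changes on that day was 2.88 (adjusted p = 0.159), and 3.61 (adjusted p = 0.0436) without mouse 4 of the mild model. On the severe left kidneys alone Il1rn differed by 0.25 between the days (adjusted p = 0.702). By transcript, the longer one (159 codons) rose by 3.19 on day 1 (adjusted p = 0.0394) and 4.96 on day 3 (adjusted p = 0.000804) in severe AKI. The other Il1rn transcript (178 codons), from a downstream start, was at 0.299 to 1.2 FPKM in left kidneys on day 3, while all 6 right kidneys were listed at 0 (adjusted p = 2.70e-06).

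Among the receptors, Il1r1, the signalling receptor for IL-1 alpha and IL-1 beta (chr1:40225080-40317257, plus strand, GRCm38), was higher in left kidneys of the severe model on both days. Right kidneys of the 4 groups held 1.28 to 2.68 FPKM. In mild AKI left kidneys held 1.02 to 3.74 FPKM on day 1 (median 2.1) and 1.63 to 2.54 FPKM on day 3 (median 2.07). In severe AKI they held 5.31 to 8.90 FPKM on day 1 (median 6.36) and 2.90 to 4.69 FPKM on day 3 (median 3.73). All severe left kidneys exceeded all right kidneys, and on each day they also exceeded all left kidneys of the mild model, a separation that 10.5% of all genes showed on day 1 and 11% on day 3.

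Il1r1 rose by 1.77 in severe AKI on day 1 (SE 0.16, adjusted p = 1.34e-06), a 3.40-fold difference. On day 3 it was higher by 0.87 (SE 0.14, adjusted p = 0.000130), a 1.83-fold difference under the required fold. In mild AKI it gave 0.24 (SE 0.27, adjusted p = 0.608) and 0.42 (SE 0.17, adjusted p = 0.116). Without mouse 5 or mouse 6 the day 1 value was 0.28 (adjusted p = 0.628) or 0.46 (adjusted p = 0.145), and without mouse 4 the day 3 value was 0.34 (adjusted p = 0.229). Severe exceeded mild left kidneys by 1.58 on day 1 (SE 0.27, adjusted p = 0.000833), where 13.7% of all genes and 2 of 9 members (Il1r1 and Il1r2) were called. The change against the right kidney was larger in severe AKI by 1.53 on day 1 (SE 0.32, adjusted p = 0.000962) and by 0.45 on day 3 (SE 0.22, adjusted p = 0.121). From day 1 to day 3 that change shrank by 0.89 in severe AKI (value -0.89, SE 0.21, adjusted p = 0.0116).

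Il1r2, the decoy receptor (chr1:40074079-40125231, plus strand, GRCm38), was called higher in severe than in mild left kidneys on both days. Right kidneys held 0 to 0.230 FPKM. In mild AKI left kidneys held 0.0927 to 0.898 FPKM on day 1 (median 0.124) and 0.150 to 0.389 FPKM on day 3 (median 0.213). In severe AKI they held 1.26 to 4.78 FPKM on day 1 (median 3.22) and 0.797 to 1.96 FPKM on day 3 (median 1.54). The left kidneys of the severe model stood apart from the right kidneys and from the mild left kidneys of the same day.

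Il1r2 rose by 4.57 (SE 0.38, adjusted p = 6.08e-07) on day 1 and 5.31 (SE 0.56, adjusted p = 4.61e-06) on day 3 of severe AKI. In mild AKI it gave 1.71 (SE 0.77, adjusted p = 0.185) on day 1 and rose by 1.51 (SE 0.40, adjusted p = 0.0200) on day 3, with overlap. That call was lost without mouse 1, 5 or 6 (adjusted p = 0.0533 to 0.0692) and fell under the required fold with a pseudocount of 0.1 or 1 FPKM (0.92 and 0.20). Without mouse 4 it was 1.48 (adjusted p = 0.0403). The day 1 value was 1.38 (adjusted p = 0.257) without mouse 5 and 1.71 (adjusted p = 0.207) without mouse 6, and passed with all 8 groups in 1 fit (adjusted p = 0.0336). Severe exceeded mild left kidneys by 3.79 (SE 0.54, adjusted p = 0.000301) on day 1 and by 2.47 (SE 0.30, adjusted p = 0.000141) on day 3, where 12.1% of all genes and 2 of 9 members (Il1r2 and Il33) were called. The changes against the right kidney differed by 2.86 (SE 0.87, adjusted p = 0.0160) and 3.79 (SE 0.69, adjusted p = 0.000281). The day 1 value lost its call without mouse 1 of the mild model (2.53, adjusted p = 0.0502) and without right kidneys 1, 3 and 4 of the severe model (2.71, adjusted p = 0.0608). From day 1 to day 3 Il1r2 gave -0.99 among severe left kidneys (SE 0.34, adjusted p = 0.0524), and passed the test without kidney 4 or 6 of day 1 or kidney 6 of day 3 (adjusted p = 0.0245 to 0.0479).

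Il1rap, the chain shared by the IL-1, IL-33 and IL-36 receptors (chr16:26581704-26730117, plus strand, GRCm38), moved by less than 2-fold. In severe AKI left kidneys held 2.78 to 3.87 FPKM on day 1 (median 3.27) and 2.39 to 3.03 FPKM on day 3 (median 2.60). Right kidneys held 1.54 to 2.35 FPKM (median 1.89) and 1.57 to 2.17 FPKM (median 2.05), with no overlap on either day. The differences of 0.77 (SE 0.14, adjusted p = 0.000327) and 0.42 (SE 0.11, adjusted p = 0.00586) were under the required fold.

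In mild AKI Il1rap gave 0.13 on day 1 (SE 0.17, adjusted p = 0.647), 0.26 (adjusted p = 0.384) without mouse 5 and 0.25 (adjusted p = 0.316) without mouse 6. On day 3 it was lower in the left kidney of all 6 mice, at 1.46 to 2.43 FPKM (median 1.76) against 2.14 to 2.93 FPKM (median 2.54). The day 3 groups overlapped through left kidney 4. That difference was -0.51 (SE 0.15, adjusted p = 0.0323), a 1.42-fold difference, and -0.58 (adjusted p = 0.0120) without mouse 4. The changes differed between severe and mild AKI by 0.63 on day 1 (SE 0.21, adjusted p = 0.0254) and by 0.92 on day 3 (SE 0.18, adjusted p = 0.000432). The day 1 value lost its call with the mouse as a block (adjusted p = 0.0609), without right kidneys 1, 3 and 4 of the severe model (adjusted p = 0.0536), and without mouse 2 or 5 of the severe or mouse 5 or 6 of the mild model (adjusted p = 0.0507 to 0.0788).

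**Figure D5:**
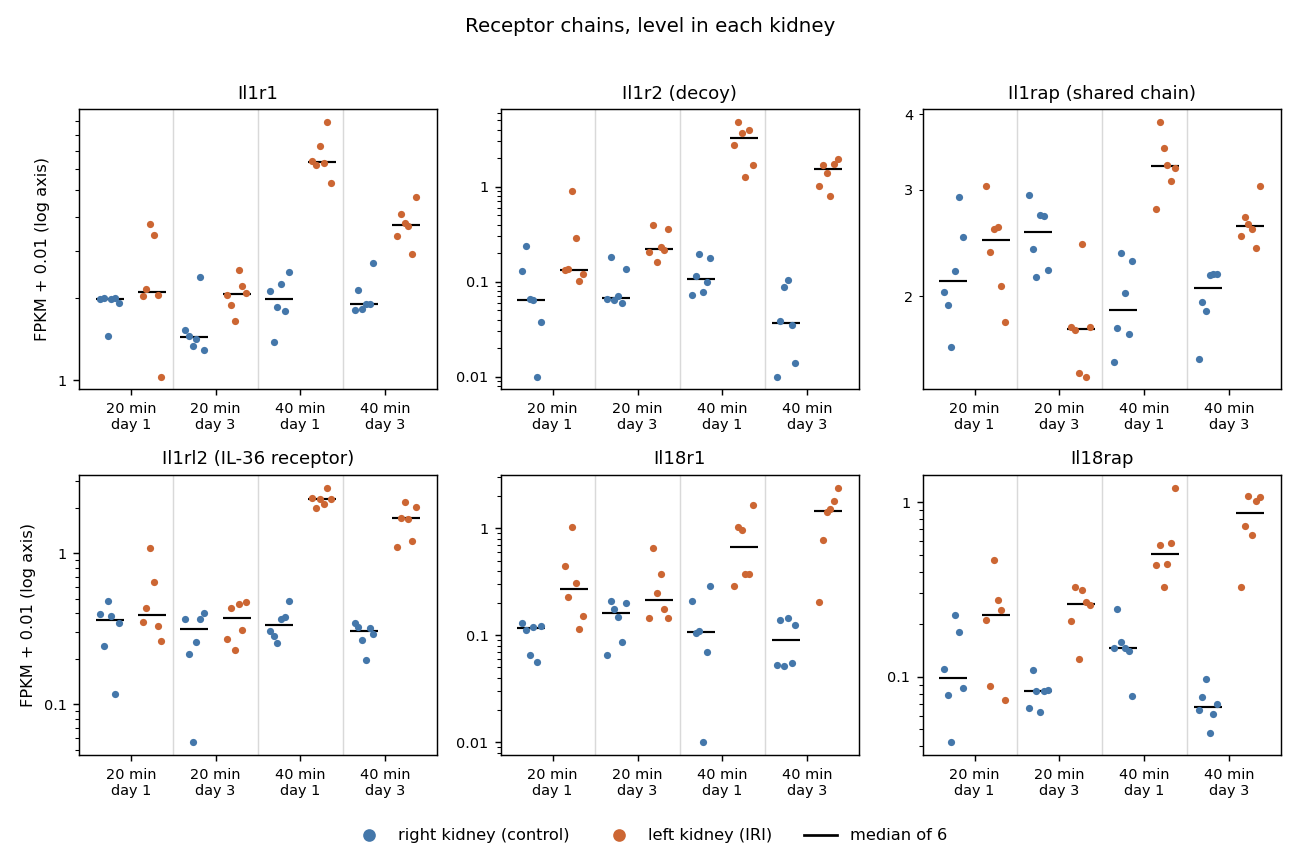
Level of 6 receptor chains in every kidney (FPKM + 0.01, log axis), right kidneys in blue and left kidneys in orange, with the median of 6 as a line. Il1r1 on day 1 of severe AKI (5.31 to 8.90 FPKM) lies above every right kidney, Il1r2 and Il1rl2 separate severe from mild left kidneys on both days, and Il1rap spans less than a log unit.

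For differences of changes between severe and mild AKI, 4 of 9 members were called on each day, against 29.8% of all genes on day 1 and 29.4% on day 3, all with the larger value in severe AKI. In mild AKI no member was called between days. In left kidneys limma called 0 of 14271 genes (0%, with 1845 at an unadjusted p under 0.05), and the count was 207 with all 8 groups in 1 fit and 187 without left kidney 6 of day 1. In the change against the right kidney 0.0841% of all genes were called, which were 12 genes and no member. Without mouse 6 of day 1 that count was 889 and without mouse 4 of day 3 it was 193. Il1rap gave -0.64 there (adjusted p = 0.197), and -0.76 (adjusted p = 0.0401) without mouse 6 of day 1.

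The measured members had 1 to 3 deposited transcripts each. Of these transcripts, 1 was called in each mild comparison, where 0.405% and 1.87% of all transcripts were called. In severe AKI 4 and 6 were called, where 15.4% and 13.8% of all transcripts were called. The mild calls were an Il1r1 transcript from the upstream start on day 1 (5.96, adjusted p = 0.0401) and Il1f6 on day 3 (adjusted p = 0.0374). That Il1r1 transcript took 57.2% ± 39.01 of Il1r1 FPKM in left and 0% in right kidneys in mild AKI on day 1 (SD, n = 6, exact permutation p = 0.0152), but 5.08% ± 6.31 and 51.4% ± 39.8 on day 3 (exact p = 0.00649). The direction was thus opposite on the 2 days. A shorter Il1rap transcript of 360 codons, against 570 for the longer one, took 10.5% ± 3.64 of left and 18.6% ± 8.70 of right kidneys on day 1 of severe AKI (exact p = 0.0563). On day 3 it took 11.2% ± 3.804 and 19.04% ± 9.34 (exact p = 0.0693).

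Other genes of the family were read from a list of 11, of which 6 had values. Il1rl2, the IL-36 receptor chain that binds IL-36 alpha, held 0.0464 to 0.476 FPKM in right kidneys and 0.219 to 1.07 FPKM in left kidneys of the mild model. In severe AKI it held 2.0 to 2.71 FPKM on day 1 and 1.09 to 2.16 FPKM on day 3, above every other kidney of the same day. Il1rl2 rose by 2.75 (SE 0.19, adjusted p = 1.05e-07) and 2.48 (SE 0.22, adjusted p = 8.97e-07) in severe AKI. In mild AKI it gave 0.62 (adjusted p = 0.373) and 0.57 (adjusted p = 0.440), and the changes differed between the models by 2.13 (adjusted p = 0.00128) and 1.91 (adjusted p = 0.00720).

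Il1f9, which encodes the IL-36 receptor ligand IL-36 gamma, was at 0.237 to 0.525 FPKM in left kidneys of severe AKI on day 1. In all other groups it lay between 0 and 0.302 FPKM. Of the 4 comparisons with right kidneys it was called in this one, where it rose by 4.86 (SE 0.56, adjusted p = 9.84e-06). From day 1 to day 3 it fell by 3.12 (SE 0.73, adjusted p = 0.0133). Only left kidneys of severe AKI on day 1 held more Il1f9 than 0.500009 FPKM, the smallest maximum of any deposited transcript. Its presence among the values may thus rest on that group, and neither call is independent of a filter at that level. The estimated read pairs were 55 in left and 1 in right kidneys, a ratio of 44.7 (95% exact interval 7.69 to 1.8e+03, counting error only).

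The receptor chains of IL-18 were called in severe AKI on both days. Il18r1, the chain that binds the ligand, held 0.278 to 1.63 FPKM on day 1 and 0.193 to 2.40 FPKM on day 3 in left kidneys of the severe model, above all right kidneys of the same model and day (at most 0.276 and 0.134 FPKM). Il18r1 rose by 2.84 (adjusted p = 0.00550) and 3.65 (adjusted p = 0.000124) there. Il18rap rose by 1.91 (adjusted p = 0.000587) and 3.47 (adjusted p = 2.00e-06) in severe AKI and by 1.57 on day 3 of mild AKI (adjusted p = 0.00630), in each case without overlap. The mild day 3 value fell under the required fold with a pseudocount of 0.1 or 1 FPKM. Il18bp, whose product neutralizes IL-18, was not called in any of the 4 comparisons. Sigirr, an inhibitory receptor of the family, was at 11.5 to 19.9 FPKM in left kidneys and 15.02 to 28.4 FPKM in right kidneys of the severe model, with differences of -0.56 (adjusted p = 0.00374) and -0.45 (adjusted p = 0.00721) under the required fold. Of these 6 genes, 0 and 1 were called in mild AKI (days 1 and 3) and 4 and 3 in severe AKI, all higher, beside 1.64%, 4.07%, 23.1% and 21.3% of all genes called in either direction.

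Of 15 genes that carry the signal inward from the receptor, 2 were called higher in severe AKI on day 1, beside 15.7% of all genes called higher, and 0 in the other 3 comparisons. Rela, an NF-kB subunit, rose by 1.01 there (adjusted p = 2.76e-06), and the adaptor Myd88 was higher by 0.75 (adjusted p = 1.98e-05), under the required fold. Of 5 inhibitors, 1 and 3 were called higher in severe AKI, where 15.7% and 15.3% of all genes were called higher. Irak3, a kinase homolog that blocks signalling from the receptor, rose by 2.29 (adjusted p = 9.18e-06) and 2.23 (adjusted p = 6.53e-07). The median of the signalling list was 0.39 and 0.28 in severe AKI, beside 0.24 and 0.16 for all genes.

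Among 12 genes of processing and release, 0 and 1 were called higher in mild AKI and 4 and 8 in severe AKI. All genes called in either direction made up 1.64% and 4.07% in mild AKI, and those called higher 15.7% and 15.3% in severe AKI, which also stand beside the next list and the markers. Ctss, the protease cathepsin S, rose by 1.68 in mild AKI on day 3 (adjusted p = 0.000359) and by 3.44 in severe AKI on day 3 (adjusted p = 8.81e-08). Capn2, a subunit of the calpain proteases that cut the IL-1 alpha precursor, rose by 1.81 (adjusted p = 2.80e-07) and 1.41 (adjusted p = 1.88e-08) in severe AKI. Of 15 genes that respond to IL-1, 4 and 5 were called higher in mild AKI and 11 and 12 in severe AKI, with medians of 1.89, 0.96, 2.52 and 2.98. Lcn2, a neutrophil and tubule protein that binds siderophores, rose by 5.42 (adjusted p = 0.00742) and 6.01 (adjusted p = 0.00138) in mild AKI and by 7.20 on day 3 of severe AKI (adjusted p = 6.16e-11). Il6, a cytokine gene that IL-1 induces, averaged 1.00 ± 0.470 FPKM (SD, n = 6) in left kidneys of severe AKI on day 1 and was listed at 0 in all 6 right kidneys. Most response genes also answer to other signals, and the part of IL-1 in their change was not tested.

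Most neutrophil, macrophage and fibroblast markers were called higher in left kidneys of severe AKI on each day, whereas calls of lymphocyte, mast cell and endothelial markers were few or mixed. Of 10 neutrophil markers listed, 7 had values, and Ngp among them was at 0 in all right kidneys of the mild groups. In severe AKI their summed level was 18.7 to 55.0 FPKM in left and 3.05 to 15.3 FPKM in right kidneys on day 1. The ranges were 8.53 to 16.7 FPKM against 2.20 to 12.1 FPKM on day 3. All 7 were called higher on day 1 and 6 of 7 on day 3. The 11 macrophage and monocyte markers summed to 104 to 622 FPKM against 48.5 to 102 FPKM on day 1 and to 261 to 674 FPKM against 35.96 to 59.2 FPKM on day 3, with 9 and 10 called higher. In mild AKI they summed to 38.3 to 236 FPKM on day 1 and 78.6 to 131 FPKM on day 3 in left kidneys, against 41.8 to 67.4 FPKM and 36.01 to 69.3 FPKM in right kidneys. Of the 2 mast cell markers with values, Cma1 was listed at 0 in all kidneys of 7 of the 8 groups. The other, Ms4a2, was called lower in severe AKI on day 3 (-3.79, adjusted p = 0.0120). Of 7 lymphocyte markers, 1 was called higher (Cd4) and 2 lower (Cd3g and Nkg7) in severe AKI on day 1, with a median of -1.47, and 3 higher on day 3, with a median of 1.64. The 5 fibroblast markers summed to 50.1 to 238 FPKM in left and 24.4 to 51.8 FPKM in right kidneys of severe AKI on day 1, and to 104 to 189 FPKM against 32.7 to 36.8 FPKM on day 3, with 3 and 5 called higher. Of 5 endothelial markers 1 and 0 were called, with sums of 79.7 to 132 FPKM against 59.7 to 96.7 FPKM and 29.3 to 75.8 FPKM against 59.3 to 72.8 FPKM. No neutrophil, mast cell, lymphocyte, fibroblast or endothelial marker was called in mild AKI. Of the 11 macrophage and monocyte markers, 1 and 3 were called higher there (days 1 and 3). The neutrophil markers of mild AKI summed to 2.62 to 26.4 FPKM in left and 3.19 to 7.49 FPKM in right kidneys on day 1. On day 3 these sums were 2.01 to 25.8 FPKM and 4.17 to 8.84 FPKM. Proximal tubule markers summed to 571 to 1061 FPKM in left kidneys of severe AKI on day 1 against 1875 to 2440 FPKM in right kidneys. The part of these cell types in the change of Il33, Il1rn, Il1r2, Il18r1, Il18rap and the other members was not tested.

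The genes whose levels ran most like each member over the 48 kidneys are given as a description. Correlations are Pearson's r of log2(FPKM + 0.01) among 12547 genes, and the kidneys share groups, mice and, within a mouse, an operation. For Il1f6 they were Them6 (0.914), the matrix protein gene Spp1 (0.907) and the fibrinogen gene Fgg (0.904). For Il33 they were the oncostatin M receptor gene Osmr (0.935), Cyp1b1 (0.924) and Aebp1 (0.922), and for Il1r1 the integrin gene Itga5 (0.946), Ehd2 (0.944) and Gnb1 (0.943). Il1rn ran most like the TNF receptor gene Tnfrsf1b (0.853), Cd14 (0.846) and Ccl9 (0.843), and Il1r2 most like Plec, Fam129b and Serinc2 (0.899 to 0.9). Within groups the r of Il1r2 with the same genes was 0.377 to 0.487, against 0.834 to 0.867 for Il33 with its own.

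Il1b and Il1a shared one neighbour. Il1b ran most like the chemokine gene Ccl4 (0.614), Acod1 (0.61) and Bcl6b (0.549), and Il1a most like Acod1 (0.621), Mmp12 (0.612) and the cytokine gene Tnf (0.576). The r of Il1b with Il1a was 0.424 over the 48 kidneys and that of Il1b with Il1f6 was -0.067. Within groups these were 0.357 and 0.333. Among the genes searched, Il18 and Il1rap had no neighbour with an r over 0.681 and 0.831.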

How the data were processed

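RNA from the renal cortex of both kidneys of 24 mice was sequenced, and the authors deposited FPKM values for 33953 Ensembl transcripts in 48 libraries. Per the submitters' processing notes and the methods, reads were checked with FastQC 0.11.7, aligned with HISAT2 2.1.0 to GRCm38 and quantified with Ballgown. The smallest maximum of any transcript over the libraries was 0.500009 FPKM, and what was filtered before deposit is not given in the sources used here. Il1f6, Il1r2, Il1f9 and Il18rap passed that level in left kidneys only, and Il1a in right kidneys only. A call of such a gene is not independent of a filter at that level. FPKM were summed per symbol through GENCODE M21, which matched 33871 transcripts and gave 14320 features (14238 symbols). FPKM are not counts, so that no count model was fitted. Depth was estimated from the spacing of low values of 1263 genes with 1 annotated transcript: 57.2% to 75.3% of values lay within 0.1 read pair of a step, against 40% expected with none. This gave 9.45e+06 to 1.6e+07 read pairs per library (median 1.25e+07). Read pairs and intervals from it are estimates that cover counting error only.

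Groups came from the labels. Groups of 6 kidneys were compared with limma 3.58.1 (R 4.3.3, lmFit and eBayes with a variance trend) on log2(FPKM + 0.01), leaving out genes whose mean over the kidneys compared was under 0.01 FPKM. The size of a change of low genes and transcripts depends on the added value, above all where kidneys are listed at 0 FPKM. P-values were adjusted over all genes (Benjamini-Hochberg), and a gene was called under 0.05 with a fold of at least 2, or under 0.05 alone for differences of fold changes. The fit was tested on simulated data with 200 changed genes, drawn from genes of about 1 FPKM or more in right kidneys. That test does not cover members of lower level. Replicate numbers mark the kidneys of 1 mouse, and the median correlation of their deviations from the group means was 0.00355 and 0.0386 (20 minutes, days 1 and 3) and 0.0589 and -0.0182 (40 minutes). The fit with the mouse as a block was run as an alternative. Transcript shares were compared by two-sided exact permutation tests (scipy 1.17.1) where every kidney of both groups had at least 0.1 FPKM of the gene. Il1rn met this in no comparison, so that its shares were not tested. Alternatives covered the pseudocount, the filter, the scaling, the samples in the fit, the variance trend, the block and leaving out each mouse or kidney. Leaving out 3 right kidneys was chosen after seeing the data. The members and lists were chosen with earlier results of these data known. All members were named, with all measured genes of the other family list. Also named were the 3 genes of each other list with the smallest adjusted p per comparison. The 3 genes most correlated with each member were taken from genes outside all lists. Promoter windows (250 bases, 9 of 10 members matched) are from RefSeq GRCm38.p6. Python 3.11.15, pandas 2.3.3 and matplotlib 3.10.9 were used.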

Additional observations from a re-analysis of the deposited data

Results flagged for a closer look

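Single kidneys stood apart from the other 5 of their group in 15 cases of 70 sets of 6 kidneys. The nominal chance rate of about 1 in 20 cannot be set against this count. That rate was not shown to hold for skewed FPKM or for genes with few read pairs, and several cases came from the same kidney. No excess over chance is therefore drawn from the count. After 20 minutes on day 3, left kidney 4 was the highest of its group for Il1f6 (17.9 FPKM), Il1b (3.86 FPKM), Il1rn (6.5 FPKM) and Il1rap (2.43 FPKM), and its mouse also had the highest right kidney for Il1b (14.1 FPKM). The summed level of injured tubule markers in that left kidney was 840 FPKM, against 2.25 to 41.8 FPKM in the other 5, and its part in these values was not tested. On day 1 after 20 minutes, left kidney 3 was the highest for Il1r2 (0.898 FPKM).

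Among right kidneys, Il1f6 stood apart where 1 kidney of a group held about 1 read pair and the others 0, at 0.112 FPKM (40 minutes, day 1), 0.0923 FPKM (40 minutes, day 3) and 0.0908 FPKM (20 minutes, day 1). Il1a did so at 0.0373 FPKM (40 minutes, day 3) and 0.0795 FPKM (20 minutes, day 3). Il1b was high in right kidney 3 of 40 minutes, day 3 (3.30 FPKM), and Il33 in right kidney 6 of 40 minutes, day 1 (5.76 FPKM). Il1r1 was low in right kidney 3 of 20 minutes, day 1 (1.45 FPKM) and high in right kidney 5 of 20 minutes, day 3 (2.4 FPKM).

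The change against the right kidney differed between models or days for 10 values, each by a limma test of the difference itself. Between 40 and 20 minutes on day 1 the log2 change was larger by 0.91 for Il18, 1.53 for Il1r1, 2.86 for Il1r2 and 0.63 for Il1rap. On day 3 it was larger by 1.26 for Il33, 1.13 for Il18, 3.79 for Il1r2 and 0.92 for Il1rap. From day 1 to day 3 of severe AKI it grew by 3.61 for Il1rn and shrank for Il1r1 (-0.89).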

How the results depend on the processing

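Of the single values of the members, 504 kept their direction and side of the threshold under other settings, 29 lost and 8 gained a call and 1 reversed; with 1 mouse or kidney left out the numbers were 559, 34, 16 and 4. Member calls in mild AKI on day 1 (1 of 9) became 0 with a pseudocount of 0.1 or 1 FPKM, without the variance trend or with the mouse as a block, 4 with all 8 groups in 1 fit, and 0 to 3 with 1 mouse left out. On day 3 (2) they became 1 and 0 with the pseudocounts of 0.1 and 1, and 0 to 3 with 1 mouse left out. In severe AKI they were 4 to 6 on each day with 1 mouse left out. Severe against mild left kidneys on day 3 (2) gave 1 with a pseudocount of 1 and 2 to 4 with 1 kidney left out, and day 3 against day 1 in severe AKI (1) gave 0 with that pseudocount or all 8 groups and 1 to 2 with 1 kidney left out. Differences of changes on day 1 (4) fell to 2 with the block, to 1 without the 3 right kidneys and to 2 to 4 with 1 mouse left out, with 4 to 5 on day 3; between days they gave 0 to 1 in mild AKI, and in severe AKI (2) 1 with either pseudocount, all 8 groups, the block or without the 3 right kidneys, and 1 to 2 with 1 mouse left out. The block changed no other call of a member than those given here or beside the results. Called transcripts of the members became 0 with a pseudocount of 1 in mild AKI on both days, 0 with the block on day 1, and 3 of 6 with that pseudocount in severe AKI on day 3.

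Uncalled values reversed for Il1f9 in mild AKI on day 3 (0.027 and 0.015 with pseudocounts of 0.1 and 1, -0.28 to 0.37 with 1 mouse left out) and for Il1a in severe AKI on day 1 without the 3 right kidneys (1.2). With 1 mouse or kidney left out they ranged from -0.42 to 0.010 for Il18 (mild, day 3), -0.15 to 0.037 for Sigirr (mild, day 1), -0.91 to 0.078 for Il1b (severe, day 3), and -0.16 to 0.42 and -0.56 to 0.012 for Il1b in severe against mild left kidneys (days 1 and 3). Over all genes, a pseudocount of 1 moved the calls from 233, 580, 3299 and 3040 (left against right) to 106, 272, 1842 and 1600, from 1955 and 1735 (severe against mild) to 1022 and 843, and from 704 (days, severe) to 346. On day 1 of mild AKI all 8 groups gave 483 and the block 79. The 12 differences between days in mild AKI became 221 with all 8 groups, 0 with the block or equal medians, 1 with no filter, 4 without the trend and 20 with a pseudocount of 1; the 1986 in severe AKI became 684 without the 3 right kidneys. The cause was not tested. Depth limited Il1f6, Il1a and Il1f9, where right kidneys held few read pairs.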
